A study of Mus musculus with 4 samples.

Results

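The AP-1 and immediate early genes described here were Fos, Fosb, Fosl1, Fosl2, Jun, Junb, Jund, Egr1, Ier3 and Myc, which were taken from the table by their symbols. All 10 were present in the liver RNA-seq table, among 15500 listed genes, and all 10 passed a filter at a mean FPKM, a transcript level scaled for transcript length and library depth, of 1 in each comparison. The table held 4 libraries of Kunming mice, 1 for each condition. Vehicle mice received chow with 1.5% (w/w) linoleic acid, CLA mice received chow with 1.5% (w/w) conjugated linoleic acid, GW6471 mice received the linoleic acid diet with daily intraperitoneal injection of 20 mg/kg of the PPARα antagonist GW6471, and CLA+GW6471 mice received the CLA diet with the same injection and are also called the mice given both. Treatment lasted 28 days, with 6 mice per group according to the labels. According to the methods, the mice were male, were bought at an age of 5 weeks and were sampled at zeitgeber time 8. The methods describe the Vehicle and CLA groups only, and neither source says whether a library came from 1 mouse or from pooled mice. With 1 library per condition there was no replicate error, so no test between conditions was made and each difference describes these libraries.

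AP-1 is a transcription factor dimer made of a Jun protein with a Fos, ATF or Maf partner, and it binds short sites in promoters and enhancers of genes for proliferation, matrix remodelling and stress responses. Fos, Fosb, Jun, Junb, Egr1, Ier3 and Myc are immediate early genes, switched on soon after growth factor or stress signals, largely through the MAP kinases and without new protein synthesis. Fosl1 and Fosl2 are induced later, in part by AP-1 itself, and Jund is largely constitutive. In the liver, Fos, Jun and Myc are known for their induction at the start of regeneration and during tissue injury.

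The libraries were checked before the comparisons. Their FPKM summed to between 497015 and 522893, and the depth estimated from the steps between low FPKM values was between 18849462 and 19294689 reads. Vehicle and CLA+GW6471 were the closest pair, with a median absolute log2 difference of 0.093 over the 10355 genes whose mean FPKM reached 1, whereas CLA and CLA+GW6471 were the farthest pair, at 0.255. Markers of hepatocytes were partly absent. Of 20 such genes, 15 were listed and 6 had a mean FPKM of at least 1. Alb was the highest of the list, at 620.17 to 1321.55 FPKM. In every library it was below Dcn, a stellate cell and fibroblast marker, and Sprr1a, a squamous epithelial marker. Ttr and Apoh were listed at 0 in some libraries, and Cyp2e1 and Cps1 did not exceed 0.10 FPKM. The summed FPKM of the hepatocyte list was 1022.99 in Vehicle, 1892.45 with CLA, 1546.58 with GW6471 and 953.41 with both. Lists for endothelial cells, lymphocytes and neutrophils summed to less than 1 FPKM in every library, and the macrophage list summed to 24.64 to 37.43 FPKM, nearly all of it Cd68. Among stellate cell and fibroblast markers Dcn alone was high, at 1147.76 to 1506.01 FPKM. Among squamous epithelial markers Krt14 did not exceed 0.05 FPKM. Sprr1a of that list had 19045.6 FPKM in Vehicle, 15810.2 with CLA, 18795.2 with GW6471 and 26115.8 with both. The cholangiocyte list, with all 6 genes listed, summed to 386.44 to 641.31 FPKM, mostly Spp1, and the erythroid list, with 3 of 5 genes listed, to 2.08 to 2.47. In bulk RNA, fewer cells of a type and less RNA per cell cannot be told apart. Which cells gave the RNA of these libraries was not tested. Pdk4, a PPARα target chosen for this check with its values known, had 1.17 (Vehicle) and 1.87 (CLA) FPKM without the antagonist, against 17.99 (GW6471) and 15.56 (CLA+GW6471) with it, although GW6471 is a PPARα antagonist. Cpt1a, another PPARα target chosen in the same way, had 11.34 (Vehicle) and 15.98 (CLA) FPKM without the antagonist, against 46.04 (GW6471) and 43.13 (CLA+GW6471) with it. The labels were not checked against other genes here, and each direction given here holds only if the labels are right.

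The genes differed in structure. In the mm9 assembly with the GENCODE vM1 annotation, Junb on chromosome 8 (87500811 to 87502617, minus strand) had a single exon. Jund lay on the same chromosome (73221638 to 73224515, plus strand) and Jun on chromosome 4 (94715725 to 94718913, minus strand), each with 2 annotated transcripts of 1 or 2 exons. Fos on chromosome 12 (86814840 to 86818223, plus strand), Fosb on chromosome 7 (19888070 to 19895394, minus strand), Fosl1 on chromosome 19 (5447703 to 5455945, plus strand) and Fosl2 on chromosome 5 (32438845 to 32460204, plus strand) had 3 or 4 exons. Ier3 on chromosome 17 (35958629 to 35959868, plus strand) had 2 exons, and Myc on chromosome 15 (61816946 to 61821929, plus strand) had 2 or 3. Genes on the opposite strand overlapped Fosl1 (Ccdc85b), Jun (BC042782) and Jund (Gm11175). No source states that strand was used in counting, so reads of such overlapping genes could not be told apart. Ccdc85b itself was listed at 8.57 FPKM in Vehicle and 12.28 in CLA, the opposite direction to Fosl1.

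Promoter sequences were available for 7 of the genes in the RefSeq set for GRCm38.p6, an assembly other than that of the expression table, and not for Fosl1, Egr1 and Myc. The 250 bases before the start of Jun, Fos and Ier3 are shown, because the transcript of the first was lowest in CLA and those of the other genes were higher in CLA than in Vehicle. Capitals mark matches on either strand to any of the motifs searched. For AP-1 and its relatives these were the AP-1 site, with the letters TGACTCA, the full CRE, with the letters TGACGTCA, the core of the CRE, with the letters TGACG, which the full CRE contains, and the variant site with the letters TGACATCA. The other motifs were the GC box, spelled GGGCGG, the binding site of EGR proteins, spelled GCGGGGGCG, which can overlap the former, the E-box, spelled CACGTG, the TATA box, spelled TATAAA, the CCAAT box, searched by the letters of its name, and the CArG box by name.
Jun, chr4:95052223-95052472, minus strand: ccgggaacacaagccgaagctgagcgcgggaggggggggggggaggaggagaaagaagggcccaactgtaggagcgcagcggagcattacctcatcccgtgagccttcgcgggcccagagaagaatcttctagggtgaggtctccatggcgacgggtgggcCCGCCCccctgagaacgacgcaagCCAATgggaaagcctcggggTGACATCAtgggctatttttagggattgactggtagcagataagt
Fos, chr12:85473640-85473889, plus strand: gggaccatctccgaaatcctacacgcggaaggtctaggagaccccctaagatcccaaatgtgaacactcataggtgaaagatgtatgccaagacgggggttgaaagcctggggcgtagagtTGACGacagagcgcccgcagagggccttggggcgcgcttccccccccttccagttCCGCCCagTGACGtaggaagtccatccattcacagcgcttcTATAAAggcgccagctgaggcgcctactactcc
Ier3, chr17:35821463-35821712, plus strand: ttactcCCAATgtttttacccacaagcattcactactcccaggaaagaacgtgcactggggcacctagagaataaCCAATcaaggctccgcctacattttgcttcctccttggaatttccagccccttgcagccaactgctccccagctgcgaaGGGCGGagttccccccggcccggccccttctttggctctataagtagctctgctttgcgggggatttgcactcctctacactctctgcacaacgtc
The Jun window held the variant TGACATCA between 45 and 38 bases before the start, a match found in 2.93% of 32851 promoter windows of the same length. The Fos window held the CRE core TGACG at 2 positions, the nearer 66 to 62 bases before the start, and a TATA box 33 to 28 bases before it; these matches occurred in 17.8% and 12.4% of the windows. The Ier3 window held 2 CCAAT boxes, a motif found in 33.8% of the windows. A CCAAT box was also present in the windows of Jun and Junb, and the CRE core in those of Fosb and Junb. A GC box was present in all 3, and in 32.7% of the windows. The EGR site was present in the windows of Fosb and Fosl2, against 2.57% of all windows. None of the 7 windows held the letters of the AP-1 site, the full CRE, the E-box or the CArG box, which says only that these letters were not in these 250 bases.

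The level of the Fos family transcripts rested on Fosl1, which encodes FRA1, a Fos protein without the strong activation domain of FOS itself. Fosl1 had 173.77 FPKM in Vehicle, 98.46 with CLA, 135.43 with GW6471 and 204.49 with both. It was lowest in CLA and highest in CLA+GW6471. Fosl2, which encodes the related protein FRA2, had 19.07, 16.86, 21.73 and 19.86 FPKM in the same order of libraries, a range of 1.29-fold. Fos, the founding member and the usual marker of acute stimulation, had 5.88 FPKM in Vehicle, 8.32 with CLA, 10.49 with GW6471 and 6.41 with both. Its order was therefore the reverse of Fosl1 for Vehicle against CLA and against GW6471. Fosb, at 5.49, 5.21, 5.16 and 4.21 FPKM, was lowest in CLA+GW6471, and its values in CLA and in GW6471 each differed from Vehicle by less than counting error.

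The Jun family was led by Junb. Junb, whose product can restrain JUN, had 240.63 FPKM in Vehicle, 254.49 with CLA, 258.50 with GW6471 and 228.74 with both, the smallest range of the 10 genes at 1.13-fold. Jund, usually the most evenly expressed Jun gene, had 136.84, 91.79, 137.56 and 156.84 FPKM. The CLA library stood alone at the low end for Jund, and Vehicle and GW6471 differed by less than counting error. Jun, the gene for c-JUN and a target of the JNK kinases, had 17.52 FPKM in Vehicle, 8.02 with CLA, 18.69 with GW6471 and 22.27 with both. Its range of 2.78-fold was the widest of the 10 genes, and again only CLA was low, with the Vehicle and GW6471 values closer than counting error.

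Outside AP-1, Myc, the gene for a transcription factor of growth and ribosome production, had the highest level of the group. It had 386.83 FPKM in Vehicle, 203.56 with CLA, 279.68 with GW6471 and 408.62 with both. The order of the libraries was the same as for Fosl1. In Vehicle, Myc exceeded 98.9% of the listed genes and Junb 98.2%, whereas Fos and Fosb stood near the middle of the table, at percentiles 49.9 and 48.7. Egr1, a zinc finger transcription factor induced through serum response factor, had 146.94, 158.38, 213.25 and 147.85 FPKM. It was highest in GW6471, and Vehicle and CLA+GW6471 differed by less than counting error. Ier3, the gene for a short-lived regulator of cell survival, had 43.49 FPKM in Vehicle, 70.76 with CLA, 66.26 with GW6471 and 47.38 with both. Here both single treatments were higher than Vehicle and CLA+GW6471, a pair that differed by less than counting error.

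**Figure D1:**
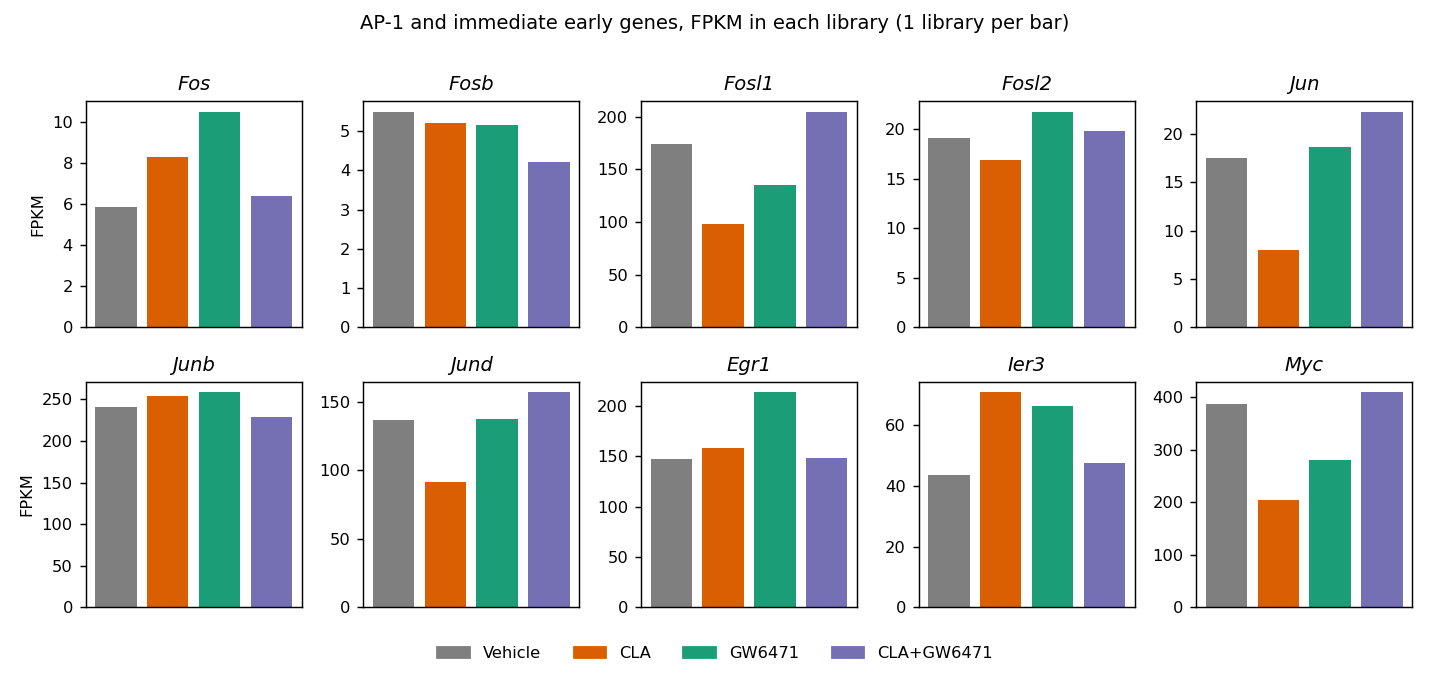
FPKM (vertical axis, from 0, with its own scale for each gene) of the 10 genes in the Vehicle, CLA, GW6471 and CLA+GW6471 libraries, 1 library per bar and so without error bars. Jun, Jund, Fosl1 and Myc were lowest in CLA and highest in CLA+GW6471, whereas Fos, Egr1 and Ier3 were lowest in Vehicle.

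In CLA against Vehicle, the question was which of these genes differed under the CLA diet alone. A gene was called when its ratio on the scale of FPKM + 0.1 was at least 1.5-fold. Jun, Myc and Fosl1 were called lower and Ier3 was called higher. Over all 10371 genes tested, 4.95% were called lower and 7.39% higher. The log2 ratio was -1.12 for Jun (95% counting interval -1.28 to -0.97), which placed it below 99.6% of the genes tested. It was -0.93 for Myc (-0.96 to -0.89) and -0.82 for Fosl1 (-0.88 to -0.76). Jund, at -0.58, was just under the 1.5-fold limit, as Vehicle exceeded CLA by 1.49-fold. With libraries scaled to the same FPKM sum it stood at -0.61 and was called, so that 4 genes were called lower. Ier3 stood at 0.70 (0.58 to 0.82), and Fos, at 0.49 (0.25 to 0.75), was not called. The other 4 genes lay between -0.18 and 0.11. The median over the 10 genes was -0.13, against -0.0065 over all genes tested. Counting intervals cover counting error only, and 65.6% of 9778 genes with a known length had an interval that did not include 0 in this comparison.

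In GW6471 against Vehicle, which asks for the effect of the antagonist on the linoleic acid diet, Fos and Ier3 were called higher and none of the 10 genes was called lower. Over all 10338 genes tested, 3.24% were called higher and 2.07% lower. The log2 ratio of Fos was 0.82 (95% counting interval 0.60 to 1.07), above 98.8% of the genes tested, and that of Ier3 was 0.61 (0.49 to 0.73). Egr1 stood at 0.54 (0.50 to 0.58), a 1.45-fold higher value in GW6471 that was not called. Myc and Fosl1 had log2 ratios of -0.47 and -0.36, in the same direction as in CLA and also not called. Jun, at 0.093, and Jund, at 0.0076, had counting intervals that included 0. The median of the 10 genes was 0.098, against -0.0042 over all genes tested. This comparison shares the Vehicle library with that of CLA.

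In CLA+GW6471 against CLA, which asks for the effect of the antagonist under the CLA diet, Jun, Fosl1, Myc and Jund were called higher and none was called lower. The share called was 6.9% higher and 9.23% lower over 10385 genes. Jun had a log2 ratio of 1.46 (interval 1.32 to 1.63), Fosl1 of 1.05 (0.99 to 1.12), and Jund of 0.77 (0.72 to 0.82). Myc was 2.01-fold higher, with a counting interval of 0.97 to 1.04 on the log2 scale. Ier3, at -0.58, was just short of the limit in the other direction, and Fos had -0.37. The median of the 10 genes was 0.068, against 0.0087 over all genes tested. The CLA library was the low one for the 4 called genes, and it enters both this comparison and the first.

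In CLA+GW6471 against GW6471, which asks for the effect of the CLA diet in mice given the antagonist, Fosl1 was called higher and Fos lower. The share called was 2.87% higher and 3.72% lower over 10335 genes. Fosl1 stood at 0.59 on the log2 scale (interval 0.54 to 0.65), just past the limit of 1.5-fold, and its call depended on the scaling. With libraries scaled to the same FPKM sum, the log2 ratio of Fosl1 was 0.53 and no gene was called higher, and 2 were called lower, Fos and Egr1, the latter at -0.59. As deposited, Fos had -0.70 (-0.94 to -0.48), Egr1 -0.53 and Ier3 -0.48, and Myc had 0.55. The median of the 10 genes was -0.15, against 0.0047 over all genes tested.

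In CLA+GW6471 against Vehicle none of the 10 genes was called, and in this comparison 0.552% of 10322 genes were called higher and 0.562% lower. The log2 ratios ran from -0.38 for Fosb to 0.34 for Jun. Of the 10 genes, 8 were above 0, and Fos, Fosl2, Egr1 and Ier3 had counting intervals that included 0. Egr1, at 0.0089, turned to -0.014 with libraries scaled to the same FPKM sum.

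A limit of 2-fold was also applied. In CLA against Vehicle, Jun was then the gene called lower and none was called higher, where 0.742% of all genes were called lower and 1.87% higher. With both against CLA, Jun, Fosl1 and Myc were called higher, where 1.3% of all genes were called higher and 2.7% lower. None of the 10 genes passed this limit in the other 3 comparisons, in which 0.551% (GW6471 against Vehicle), 0.377% (CLA+GW6471 against GW6471) and 0.184% (CLA+GW6471 against Vehicle) of all genes were called higher and 0.339%, 0.716% and 0.0678% lower.

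**Figure D2:**
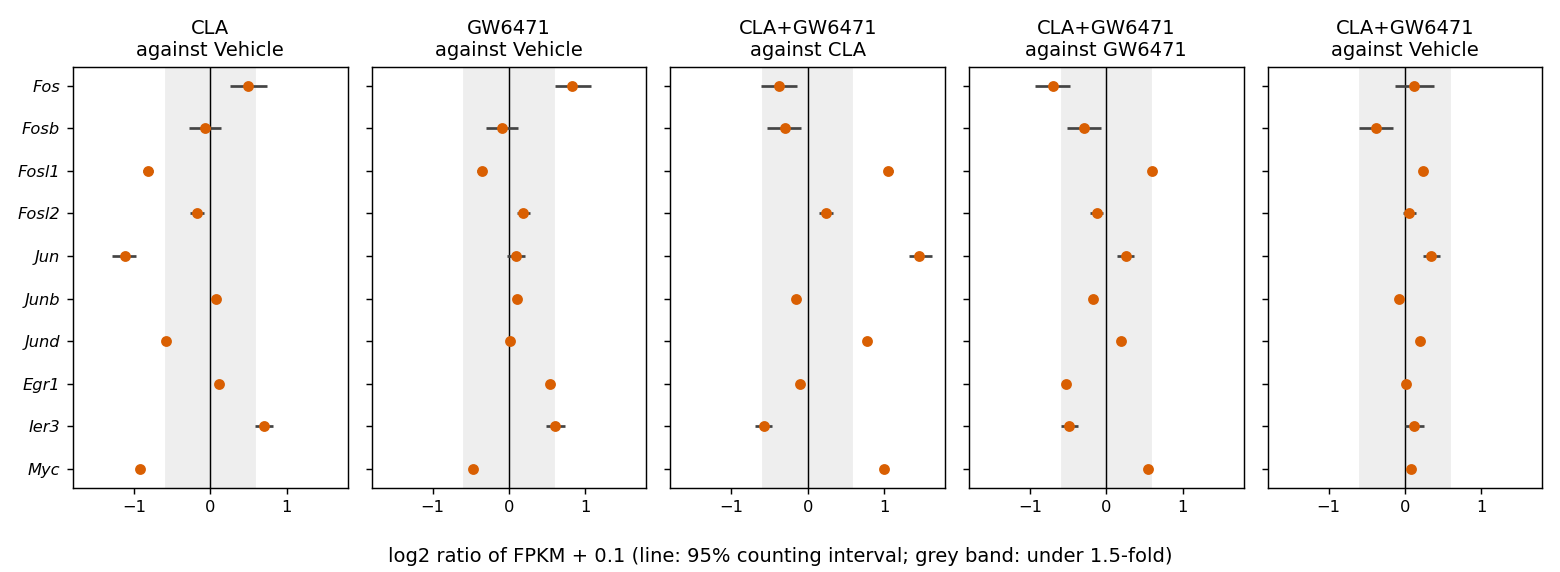
Log2 ratio of FPKM + 0.1 (horizontal axis) for each of the 10 genes in 5 comparisons of 2 libraries, with points for the ratio, lines for the 95% counting interval and a grey band for ratios under 1.5-fold. Jun, Myc and Fosl1 lay left of the band in the first comparison and right of it in that of CLA+GW6471 with CLA, and all 10 genes lay within the band in CLA+GW6471 against Vehicle.

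The CLA effect was set out without and with the antagonist, from pairs that share no library. Of the 10 genes, 8 had opposite signs in the pair without the antagonist and in the pair given the antagonist. The same was true of 73.0% of the 10355 genes whose mean FPKM reached 1, so opposite signs were not particular to the 10 genes. The difference between the log2 ratios, with the antagonist minus without, was 1.47 for Myc, 1.41 for Fosl1, 1.37 for Jun and 0.76 for Jund. It was -1.20 for Fos, -1.18 for Ier3 and -0.64 for Egr1. Fosl2 and Fosb were the genes with the same sign in both pairs, with differences of 0.048 and -0.21. With 1 library in each condition these differences could not be tested.

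**Figure D3:**
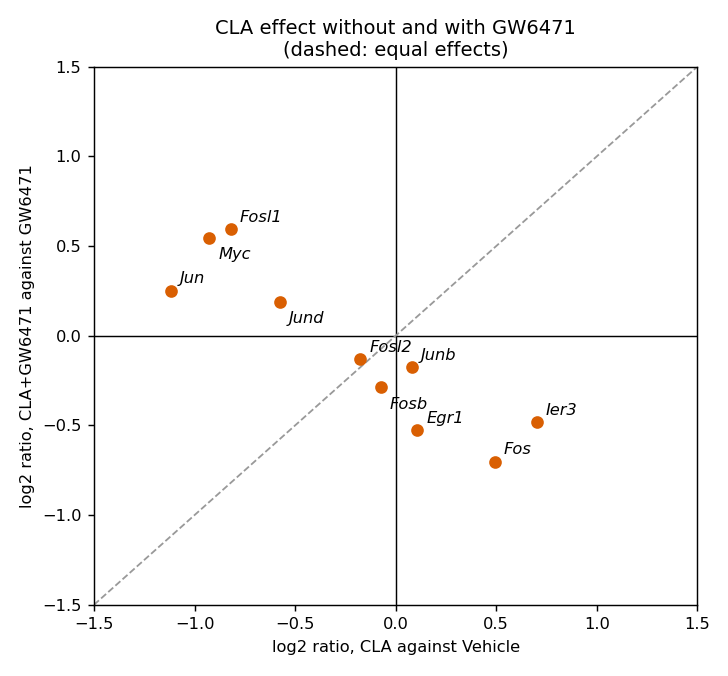
Log2 ratio of CLA to Vehicle (horizontal axis) against that of CLA+GW6471 to GW6471 (vertical axis), with 1 point for each of the 10 genes and a dashed line for equal effects. Jun, Jund, Fosl1 and Myc sat in the upper left and Fos, Ier3, Egr1 and Junb in the lower right.

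The make-up of the AP-1 pool was compared within each library, where a share does not depend on scaling between libraries. FPKM is per length, so levels of different genes can be compared. The Fos family sum was 204.21 FPKM in Vehicle, 128.85 with CLA, 172.81 with GW6471 and 234.97 with both. Fosl1 made up 85.1% of it in Vehicle, 76.4% with CLA, 78.4% with GW6471 and 87.0% with both. The share of Fos was 2.88%, 6.46%, 6.07% and 2.73% in the same order. The Jun family sum varied less, with 394.99, 354.30, 414.75 and 407.85 FPKM. Within it, Junb made up 60.9% in Vehicle, 71.8% with CLA, 62.3% with GW6471 and 56.1% with both, Jund 38.5% at its highest, in CLA+GW6471, and 25.9% at its lowest, in CLA, and Jun 5.46% and 2.26% in the same libraries. The sum of the Fos family was 0.52 times that of the Jun family in Vehicle, 0.36 with CLA, 0.42 with GW6471 and 0.58 with both. The ratio of Egr1 to Myc was 0.38 in Vehicle, 0.78 with CLA, 0.76 with GW6471 and 0.36 with both, so that both single treatments stood apart from the other libraries in the same direction.

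**Figure D4:**
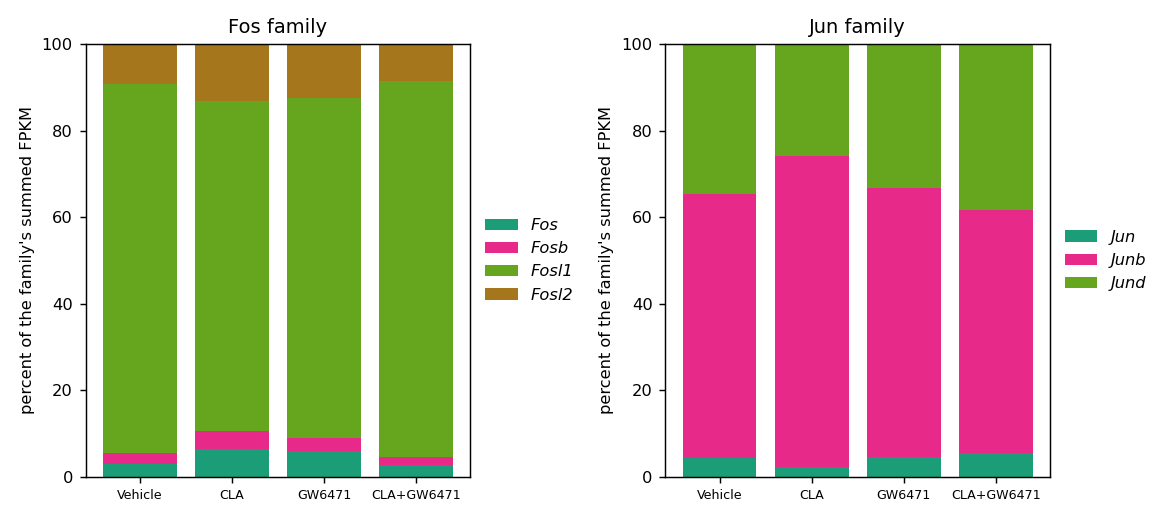
Percent of the summed FPKM of the Fos family (left) and of the Jun family (right) contributed by each gene, stacked, with 1 bar per library. Fosl1 and Junb made up most of their families in all 4 libraries, and the Junb share was highest, at 71.8%, in CLA.

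The summed level of the hepatocyte markers given above was ordered CLA, GW6471, Vehicle, CLA+GW6471 from high to low, the reverse of the order of Fosl1 and Myc. Most of this sum was Alb, with 1321.55 of 1892.45 FPKM in CLA and 679.53 of 1022.99 in Vehicle. Of the 6 markers with a mean FPKM of at least 1, Alb, Trf, Fgb and Apob each had the order of the sum. Ass1 was highest in CLA and lowest in Vehicle. Hnf4a, a transcription factor of the same list, differed. It had 54.53 FPKM in Vehicle, its highest value, 47.31 with CLA, 47.23 with GW6471 and 51.84 with both. In CLA against Vehicle 7 genes of the list passed the filter. Of these, 5 were called higher and 0 lower, beside 7.39% and 4.95% of all genes. The part of the hepatocyte markers in the results was not tested.

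Other genes of the pathway were taken from lists written out with earlier results of these data known. Among 15 ATF, BATF and Maf partners of AP-1 and related factors, 11 were listed. With CLA against Vehicle, 2 of the 11 were called lower, Atf3 and Mafk, where 4.95% of all genes were. Atf3, a stress-induced factor that pairs with Jun proteins, had 89.81 FPKM in Vehicle, 42.33 with CLA, 89.81 with GW6471 and 88.37 with both, so that CLA alone was low, as for Jun. Mafk, a small Maf protein, had log2 ratios of -0.74 for CLA against Vehicle and 0.74 for both against CLA. The median log2 ratio of the list in CLA against Vehicle was -0.26.

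Of 44 further immediate early genes, 42 were listed and 39 passed the filter. CLA against Vehicle gave 6 genes called lower and 2 higher, where 4.95% of all genes were called lower and 7.39% higher. In CLA+GW6471 against CLA 10 were called higher and 2 lower, where 6.9% of all genes were called higher and 9.23% lower. The largest differences in CLA against Vehicle were those of Ppp1r15a, the stress-induced phosphatase subunit GADD34, at -1.22, Klf2, a zinc finger factor, at 1.05, and Ier5 at -0.93. Gadd45g, a growth arrest gene, had 20.42 FPKM in Vehicle, 11.53 with CLA, 11.80 with GW6471 and 25.31 with both, and was called lower in GW6471 against Vehicle, where 1 gene of the list was called lower and 0 higher, beside 2.07% and 3.24% of all genes. With libraries scaled to the same FPKM sum, 1 gene was also called higher. The median log2 ratio was -0.21 for CLA against Vehicle, and 0.34 for both against CLA.

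The feedback inhibitors of the MAP kinases were mostly Dusp genes, which encode phosphatases that switch the kinases off. All 18 were listed and 17 passed the filter. Of the 17, 6 were called lower and 0 higher with CLA against Vehicle, where 4.95% of all genes were called lower and 7.39% higher. Among the 6 was Rasa1, at -0.66, which is not a Dusp gene and was named after its value was seen. With both against CLA 6 were called higher and 0 lower, beside 6.9% and 9.23% of all genes. Dusp14 had the largest log2 ratios, -1.20 and 1.70, with 33.90 FPKM in Vehicle, 14.66 with CLA, 21.26 with GW6471 and 48.02 with both. Dusp5 had -0.90 and 1.25, and Dusp1, the immediate early phosphatase, had -0.83 and 1.19. The most abundant gene of the list, Dusp6, which encodes a phosphatase of ERK and was named after its values were seen, stood at 219.13 to 241.46 FPKM. Upstream of them, the 29 genes of the MAP kinase route were all listed and 28 passed the filter. With CLA against Vehicle 3 were called higher and 0 lower, beside 7.39% and 4.95% of all genes. These were Rps6ka1, a kinase downstream of ERK, with a log2 ratio of 1.09, Mapk3, the gene for ERK1, with 0.66, and Map2k1, the gene for the ERK kinase MEK1, with 0.59. The latter was just past the limit, and 2 genes were called higher with a pseudocount of 1 or with libraries scaled to the same FPKM sum. In CLA+GW6471 against CLA the same 3 were called lower, and the pair shares the CLA library.

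Of 20 genes known as AP-1 targets, all were listed and 15 passed the filter. The CLA diet alone gave 3 called lower and 1 higher, beside 4.95% and 7.39% of all genes, with a median log2 ratio of 0.064. Areg, the gene for the EGF receptor ligand amphiregulin, had 411.34 FPKM in Vehicle, 144.84 with CLA, 288.76 with GW6471 and 405.62 with both, a log2 ratio of -1.51 in CLA against Vehicle. Mmp13, a collagenase gene, had 960.77, 506.68, 754.68 and 1006.15 FPKM, and Lif, a cytokine gene, was lower in CLA than in Vehicle with a log2 ratio of -0.88. For Areg and Mmp13 CLA was the lowest library and GW6471 the next, as for Fosl1. Spp1, the gene for osteopontin, went the other way, with 372.04 FPKM in Vehicle and 574.44 in CLA. In GW6471 against Vehicle 1 target was called higher and 1 lower, beside 3.24% and 2.07% of all genes. Hmox1, the gene for heme oxygenase 1, was the higher one, with a log2 ratio of 0.65. Mmp10 was the lower one, with -0.62. With a pseudocount of 1 or with libraries scaled to the same FPKM sum, 0 were called lower.

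Around Myc, all 13 genes of the MAX network were listed and 11 passed the filter. Of these, 3 were called higher and 1 lower in CLA against Vehicle, beside 7.39% and 4.95% of all genes. The higher ones were Mxd3, Mxi1 and Mxd4, which encode MAX partners that oppose MYC, with log2 ratios of 1.21, 1.08 and 0.87. Mxd3 was low, at 1.82 FPKM in Vehicle and 4.35 in CLA. Other genes of the list did not share this direction, as Mxd1 had -0.30. Mga, at -0.53, and Mnt, at 0.14, were named after their values were seen and were not called. In CLA+GW6471 against CLA, Mxd3, Mxi1 and Mxd4 had -1.33, -1.03 and -1.07, and Mxd1 had 0.45. Mycl1, a Myc paralog named after its value was seen, was the lower one, with -0.80. Of 27 genes known as Myc targets, 26 were listed and all of these passed the filter. In CLA against Vehicle 4 were called lower and 1 higher, beside 4.95% and 7.39% of all genes, with a median of -0.17. Odc1, which encodes the first enzyme of polyamine synthesis, had 160.85 FPKM in Vehicle, 83.37 with CLA, 136.91 with GW6471 and 220.50 with both. Nop56, a ribosome assembly gene, had a log2 ratio of -0.73, and Tfrc, the transferrin receptor gene, had 1.03. In GW6471 against Vehicle the median of the Myc targets was -0.22, with 0 called lower and 1 higher, beside 2.07% and 3.24% of all genes. The EGR corepressor genes Nab1 and Nab2 were not called in any comparison, and their log2 ratios in CLA against Vehicle were 0.14 and -0.38.

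**Figure D5:**
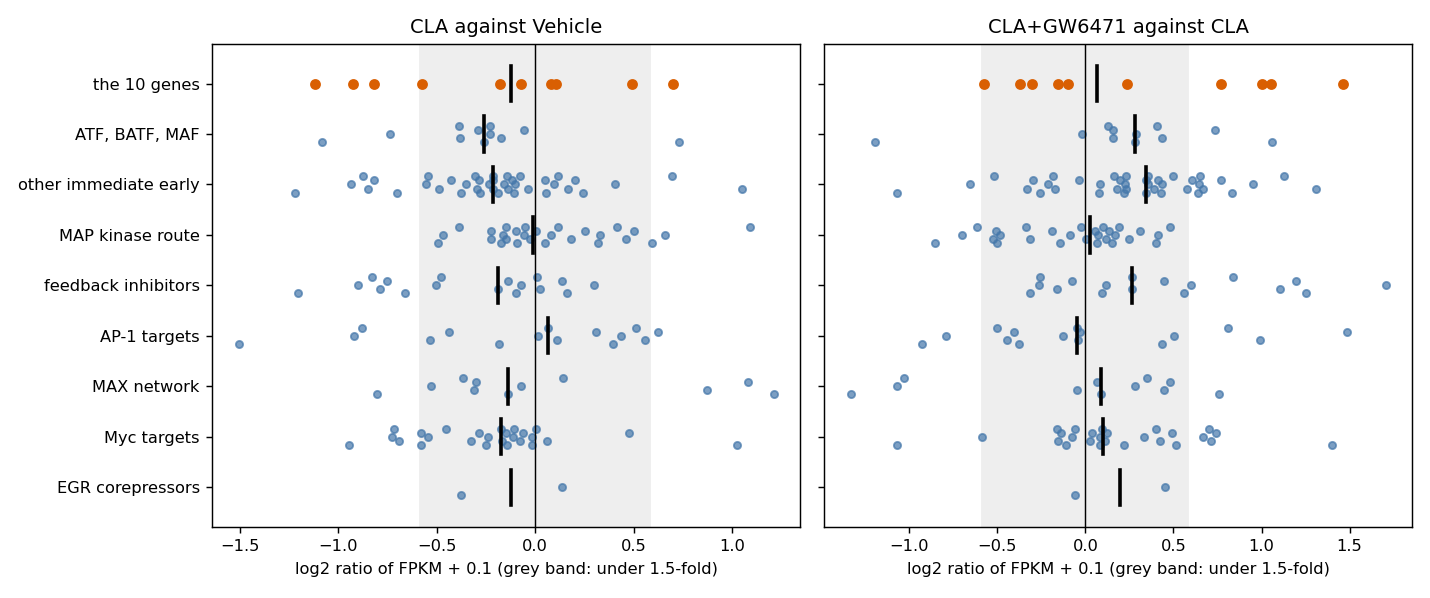
Log2 ratio of FPKM + 0.1 (horizontal axis) for CLA against Vehicle (left panel) and for both against CLA (right panel) for the 10 genes (orange) and for the genes of 8 pathway lists that passed the filter (blue), with black bars at the medians and a grey band for ratios under 1.5-fold. In CLA against Vehicle the feedback inhibitors had 6 genes left of the band and 0 right of it.

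The genes most like Jun and Fosl1, the members with the widest range on the log2 scale, were found by the Euclidean distance over the 3 log2 ratios to Vehicle among genes whose mean FPKM reached 5. For Jun these were Fam171b at a distance of 0.28, Dusp1 at 0.29 and Prrg4 at 0.37. Dusp1 had 70.42 FPKM in Vehicle, 39.57 with CLA, 72.58 with GW6471 and 90.62 with both. For Fosl1 they were Grasp at 0.049, Gprc5a at 0.071 and Vgf at 0.092. Gprc5a had 253.94, 144.28, 194.72 and 285.22 FPKM in the same order. The distances were smaller for Fosl1 than for Jun, and they rest on 4 libraries.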

How the data were processed

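RNA-seq of mouse liver gave 4 libraries, assigned to their conditions by the labels. The authors mapped reads with BWA and Bowtie on mm9 and quantified transcripts with Cufflinks, whose versions the sources do not give. They deposited FPKM with 2 decimals, in 1 column for each library, and no column was left out.

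The 10 genes, the 8 pathway lists and the 9 marker lists were chosen with earlier results of these data known. Ratios were taken on log2(FPKM + 0.1), which understates changes of low genes. A gene entered a comparison when its mean FPKM over the 2 libraries reached 1. A deposited 0 may be a failed estimate. The rule for naming genes of the pathway lists took the 3 with the largest absolute log2 ratio in any of the 4 factorial comparisons. It required a mean FPKM of at least 1 over the 4 libraries. Not every gene that met the rule is named in the text. A gene that this rule names is not reported here. Other list genes are said to be named after their values were seen, and marker genes are named as examples of their lists.

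With FPKM in place of counts, no count test could be used. Depth was estimated from FPKM steps of 603 single-transcript genes shorter than 1000 nt. From it and the longest coding transcript in GENCODE vM1, exact Clopper-Pearson intervals (95%) were computed, approximate and limited to counting error. Python 3.11.15, numpy 2.4.6, pandas 2.3.3 and scipy 1.17.1 were used, and the steps were tested on simulated data. Alternatives were pseudocounts of 0.01 and 1, no filter, a filter at 5, a limit of 2-fold, and scaling by FPKM sum or by median of ratios.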

Additional observations from a re-analysis of the deposited data

Results flagged for a closer look

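The CLA effect went in opposite directions without and with GW6471, by at least 1.5-fold in each pair, for 7 of the 50 genes examined. These 50 were the 10 genes and those that met the naming rule for the pathway lists, apart from a gene not reported here. Some of them are not named in the text. The opposite directions were not tested, since each condition has 1 library. Such opposite directions held for 4.4% of 10355 genes, but the list genes were chosen for large ratios in these same comparisons, so the shares cannot be compared. Fosl1 was the only one of the AP-1 and immediate early genes among the 7, with log2 ratios of -0.82 and 0.59 and a difference of 1.41. With libraries scaled to the same FPKM sum the second ratio was 0.53, under the 1.5-fold limit. It was followed in the pathway lists by Dusp14, with a difference of 2.38, Gadd45g with 1.91 and Odc1 with 1.63, all lower in CLA than in Vehicle and higher in CLA+GW6471 than in GW6471. The reverse held for Tfrc, with a difference of -1.86, Mxi1 with -1.73 and Mxd4 with -1.68.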

How the results depend on the processing

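Of 97 counts and medians over the 10 genes under an alternative, 90 stayed within 1.5 times the main count or within 0.1 of the main median on the log2 scale. With a limit of 2-fold in place of 1.5-fold, 1 gene was called lower and 0 higher in CLA against Vehicle, 0 higher in GW6471 against Vehicle, and 0 higher and 0 lower in CLA+GW6471 against GW6471. With libraries scaled to the same FPKM sum, 0 genes were called higher and 2 lower in CLA+GW6471 against GW6471, where Fosl1 and Egr1 lie close to the limit. Of 200 log2 ratios of single genes under an alternative, 193 stayed within the counting interval and none of those past 1.5-fold turned its sign. The 7 that moved did so under the FPKM sum, in comparisons with the GW6471 library. Of 560 counts for the pathway lists, added after the data were seen, 505 stayed within 1.5 times. No paired analysis was possible because each condition has 1 library. Depth limits the precision of the low genes Fos and Fosb, and 1 library per condition leaves the spread between animals unknown.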
